A study of Mus musculus with 57 samples.

Results

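The cell proliferation genes are 37 genes of S phase and mitosis, listed by name and found by symbol in both count tables. Of these, 14 serve DNA replication and 23 serve mitosis, and the classes are kept apart throughout. They are 37 of the 25416 genes in the acute table and of the 54658 genes in the chronic table. RNA was taken from heart samples of male C57BL/6 mice, 57 samples in all, each called a heart here. In the acute study, mice bought at 9 weeks of age received 1 i.p. injection of 20 mg/kg doxorubicin (Doxo), an anthracycline that poisons topoisomerase II and damages DNA. The acute Ctrl group (14 hearts) received saline vehicle without Doxo or NMN, the acute Doxo group (13 hearts) received Doxo and vehicle, and the acute Doxo-NMN group (13 hearts) received Doxo and i.p. nicotinamide mononucleotide (NMN), a precursor of NAD+, at 180 mg/kg/day from 5 days before Doxo. Acute hearts were collected 5 days after Doxo, 2 h after the last NMN injection. In the chronic study, mice of 14 to 16 weeks received 5 i.p. injections of 4 mg/kg Doxo within 2 weeks, 20 mg/kg in total, and hearts were collected 60 days after the first injection. The chronic Ctrl group (5 hearts) received PBS, the chronic Doxo group (6 hearts) Doxo with plain drinking water, and the chronic Doxo-NMN group (6 hearts) Doxo with NMN at 500 mg/kg/day in drinking water from 5 days before the first injection. Hearts came only from mice alive on the day of collection, and RNA of heart tissue holds cardiomyocytes together with the other cells of the sample. Such bulk RNA cannot tell fewer cycling cells from less of a transcript in each of them.

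A dividing cell copies its DNA in S phase and then separates the copies in mitosis, and different genes serve each step. E2F factors switch on the replication genes, which encode the MCM helicase that opens the DNA, the PCNA clamp that holds the polymerases, and the enzymes that supply nucleotides. Later the kinase Cdk1 with cyclins A and B, together with the factor Foxm1, drives the genes that build the spindle, attach chromosomes and control the exit from mitosis, and Mki67 encodes the Ki-67 protein used to mark cycling cells. Adult cardiomyocytes rarely divide, so cycling cells of the adult heart are mostly other cells. After DNA damage, p53 raises Cdkn1a, an inhibitor of cyclin-dependent kinases, and repressor complexes then hold many of these genes down through short E2F and CHR letters in their promoters.

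Those letters stood at unlike shares in the promoters of the 2 classes (RefSeq, build GRCm38.p6, from 250 bases before to 50 bases after the annotated start). Promoters were found for 31 of the 37 members, and the letters were searched on both strands. The CHR letters TTTGAA stood in 13 of 18 mitosis promoters (72.2%), in 2 of 13 replication promoters (15.4%), those of E2f8 and Mcm2, and in 20.2% of the promoters of 27025 genes. The E2F letters TTTGGCGC or TTCCCGC stood in 5 of 13 replication promoters (38.5%), in 0 of 18 mitosis promoters and in 5.79% of all. The CCAAT letters bound by NF-Y stood in 83.3% of mitosis and 69.2% of replication promoters and in 41.1% of all. No test was made of these shares. For Kif2c (counted with CHR letters), E2f1 (counted without E2F letters) and Mcm7 (counted with E2F letters), the annotations differ. In the annotation used for exon lengths, their promoter windows lay wholly inside the gene. The 5′ ends of these genes in that annotation were not searched. The promoters shown here are those of the 3 replication members with E2F letters and the 3 mitosis members with CHR letters of lowest adjusted p for acute Doxo vs. Ctrl. Each runs from 180 bases before to 30 bases after the start, 5′ to 3′ on the strand of the gene, and capitals mark E2F, CHR and CCAAT letters or their reverse complements. Cdk1, Kif23 and Cenpf are on the minus strand at chr10:69352883-69353092, chr9:61946770-61946979 and chr1:189688057-189688266. Mcm7 and Mcm3 are on the minus strand at chr5:138171854-138172063 and chr1:20820283-20820492, and Mcm5 is on the plus strand at chr8:75109329-75109538.
Cdk1: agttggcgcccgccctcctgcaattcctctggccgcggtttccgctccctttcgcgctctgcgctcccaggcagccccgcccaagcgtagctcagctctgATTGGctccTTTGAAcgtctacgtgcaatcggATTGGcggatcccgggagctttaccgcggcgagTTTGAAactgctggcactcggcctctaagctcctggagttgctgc
Kif23: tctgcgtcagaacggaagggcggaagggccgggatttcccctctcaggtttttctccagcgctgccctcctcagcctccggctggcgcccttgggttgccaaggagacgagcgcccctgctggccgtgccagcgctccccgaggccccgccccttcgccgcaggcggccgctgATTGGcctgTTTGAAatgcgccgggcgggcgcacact
Cenpf: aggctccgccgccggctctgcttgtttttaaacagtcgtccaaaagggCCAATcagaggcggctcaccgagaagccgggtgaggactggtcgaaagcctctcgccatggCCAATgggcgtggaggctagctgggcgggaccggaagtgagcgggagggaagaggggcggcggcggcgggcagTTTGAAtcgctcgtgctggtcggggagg
Mcm7: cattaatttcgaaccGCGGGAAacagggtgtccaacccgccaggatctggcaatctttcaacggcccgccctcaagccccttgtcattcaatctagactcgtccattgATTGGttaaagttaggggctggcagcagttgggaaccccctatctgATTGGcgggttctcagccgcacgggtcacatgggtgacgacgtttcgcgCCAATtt
Mcm3: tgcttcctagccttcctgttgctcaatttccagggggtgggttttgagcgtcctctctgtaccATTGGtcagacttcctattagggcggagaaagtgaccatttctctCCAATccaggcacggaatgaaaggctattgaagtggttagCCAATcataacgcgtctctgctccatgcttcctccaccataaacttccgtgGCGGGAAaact
Mcm5: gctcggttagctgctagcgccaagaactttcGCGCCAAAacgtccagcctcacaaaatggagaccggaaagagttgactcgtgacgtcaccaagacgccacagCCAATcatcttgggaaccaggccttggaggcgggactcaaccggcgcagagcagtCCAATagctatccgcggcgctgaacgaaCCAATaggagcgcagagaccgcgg

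Most members were rare transcripts in Ctrl hearts, Pcna, Cenpf and Rrm1 less so, and the mitosis genes were the rarer class. Levels are given as counts scaled to the normalized library size (CPM), and per kilobase of exon where genes are compared. Acute hearts had 32409622 to 52102850 counts and chronic hearts 17769886 to 23862287, so that 3 counts, taken as the limit of detection, equal 0.0576 to 0.0926 CPM in an acute heart and 0.126 to 0.169 CPM in a chronic heart. This limit covers counting error only. Of the members' counts from 1 to 20, 76.9% were even in acute hearts against 53% in chronic hearts. The same 3 counts may thus not mean the same in both studies, and the cause was not tested. In acute Ctrl hearts Pcna was the highest member per length, at 11.4 CPM per kb, followed by Mcm4 (2.08) and Mcm7 (2.06), and the lowest were Ccnb1 (0.0830), Bub1 (0.0668) and Kif2c (0.0525). Chronic Ctrl hearts had Pcna at the top (13.4 CPM per kb) and Kif2c at the bottom (0.0673). Neighbours in this order often differed by less than their spread, and with the longest transcript in place of all exons the value of Pcna in acute Ctrl hearts was 18.1 CPM per kb. By counts, the largest members were Rrm1, Pcna and Cenpf in both studies, with means of 16.8, 27.4 and 24.5 CPM in acute Ctrl hearts. Among mitosis members Cenpf stood apart, with a mean of 24.5 ± 8.43 CPM (SD, n = 14) in acute Ctrl hearts against 3.95 ± 1.1 CPM for Mki67 and 0.229 ± 0.113 CPM for Kif2c.

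At 3 counts, an acute Ctrl heart held on average 98.4% of the 23 mitosis members (SD 2.16, n = 14), an acute Doxo heart 85.3% (SD 6.29, n = 13) and an acute Doxo-NMN heart 87% (SD 6.4, n = 13). Since most low acute counts are even, 6 counts were tried as well, where these shares were 97.8%, 77.9% and 79.6%. All 14 replication members were detected in each acute Ctrl and Doxo-NMN heart, and 13 of them were detected in all acute Doxo hearts. Ccnb1, which encodes cyclin B1, had 2 to 22 counts in acute Ctrl hearts (median 16, at least 3 counts in 13 of 14 hearts), 0 to 8 in Doxo hearts (median 2, detected in 4 of 13) and 0 to 8 in Doxo-NMN hearts (median 2, detected in 4 of 13). Kif2c, a kinesin that takes microtubules apart, had 0 to 18 counts in Ctrl (detected in 12 of 14), 0 to 10 in Doxo (3 of 13) and 0 to 9 in Doxo-NMN hearts (4 of 13). The checkpoint kinase gene Bub1 had 2 to 24 counts in Ctrl (detected in 13 of 14), 0 to 20 in Doxo (7 of 13) and 0 to 15 in Doxo-NMN hearts (8 of 13). These 3 genes, Ccnb1, Bub1 and Kif2c, did not pass the filter on low counts in either study, so that 34 of the 37 members, all 14 replication members and 20 of the 23 mitosis members, were tested for differences between groups. Without that filter, edgeR's quasi-likelihood test gave Ccnb1 a log2 fold change of −2.58 for Doxo vs. Ctrl (SE 0.53, adjusted p = 7.65e-05) and of −2.49 for Doxo-NMN vs. Ctrl (SE 0.519, adjusted p = 0.000721). Kif2c gave −2.17 (SE 0.604, adjusted p = 0.00251) and −2.14 (SE 0.594, adjusted p = 0.00972) in that fit, and Bub1 −1.41 (SE 0.495, adjusted p = 0.0153) and −1.23 (SE 0.487, adjusted p = 0.0703).

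A few facts of the hearts bear on all comparisons. The acute heart labelled Doxo replicate 6 lay above all 12 other Doxo hearts for 17 of 23 mitosis members and within the range of Ctrl hearts for 20 of 23, and its Cdkn1a level was 56.4 CPM against 78.1 to 306.9 CPM in the other Doxo hearts. Calls of members that change without it, and members' fold changes vs. Ctrl that move by over 1.5 times, are given beside the results. Atrial tissue was present unevenly, with Myl4 at 100 CPM or more in 8 of 14 Ctrl, 5 of 13 Doxo and 4 of 13 Doxo-NMN hearts of the acute study. Markers of cardiomyocytes and of some other cells moved with the acute groups. The 6 cardiomyocyte markers summed to medians of 61074, 50289 and 66948 CPM in Ctrl, Doxo and Doxo-NMN hearts, and 1 rose and 2 fell in Doxo vs. Ctrl. The 7 red cell precursor markers summed to 438.6 to 4319 CPM in Ctrl hearts, 1.25 to 339.3 CPM in Doxo hearts, where the heart labelled replicate 6 held the highest value, and 0.209 to 2.81 CPM in Doxo-NMN hearts, and 7 of 7 fell in Doxo vs. Ctrl. The fibroblast markers summed to medians of 1115, 825 and 778 CPM in Ctrl, Doxo and Doxo-NMN, and 4 of 6 fell in Doxo hearts. Neutrophil markers rose, with medians of 2.43, 15.1 and 9.37 CPM and 4 of 4 tested markers higher in Doxo hearts. The lymphocyte markers had medians of 2.15, 1.15 and 1.19 CPM, with 3 of 3 tested lower in Doxo hearts, and thymocyte markers stayed at or under 0.576 CPM in every acute heart. Endothelial markers had medians of 807.5, 820.6 and 680.9 CPM, with 1 of 6 lower in Doxo hearts. Macrophage markers had medians of 168.5, 132.1 and 132.9 CPM, with 2 of 6 lower. Mesothelial markers had medians of 30.9, 16.8 and 10.3 CPM, with 1 of 4 higher and 1 lower. In chronic hearts the red cell precursor markers overlapped between the groups, from 132.5 to 434.1 CPM in Ctrl, 16.2 to 356.2 CPM in Doxo and 93.5 to 464.7 CPM in Doxo-NMN. The part of these cells in the levels of the members was not tested.

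The acute Doxo vs. Ctrl comparison asks which members differed 5 days after the drug. More mitosis genes fell than rose, and replication genes were called in both directions at shares near those of all genes. Genes were called where the adjusted p was under 0.05 and the level changed 1.5-fold or more. Of 20 mitosis members tested, 11 fell (55%), 1 rose and 8 were not called, and their median log2 fold change was −0.64 against 0.00 for all genes tested. Cdk1, Ube2c, Ccnb2 and Aurkb passed the filter on low counts mainly through Ctrl hearts, and the share that fell depends in part on this. Their medians were 0.684, 0.666, 0.418 and 0.372 CPM in Ctrl hearts against 0.149, 0.184, 0.209 and 0.0493 CPM in Doxo hearts. Of 14 replication members, 3 rose, 3 fell and 8 were not called (21.4% each way), with a median of 0.03. Over all 14240 genes tested, 14.7% were called higher and 15.4% lower. Without the heart labelled Doxo replicate 6, all 18 of these members were called in the same direction, and Pcna (higher) and Nusap1 (lower) were called as well. The plot of fold changes by member shows the classes side by side.

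**Figure D1:**
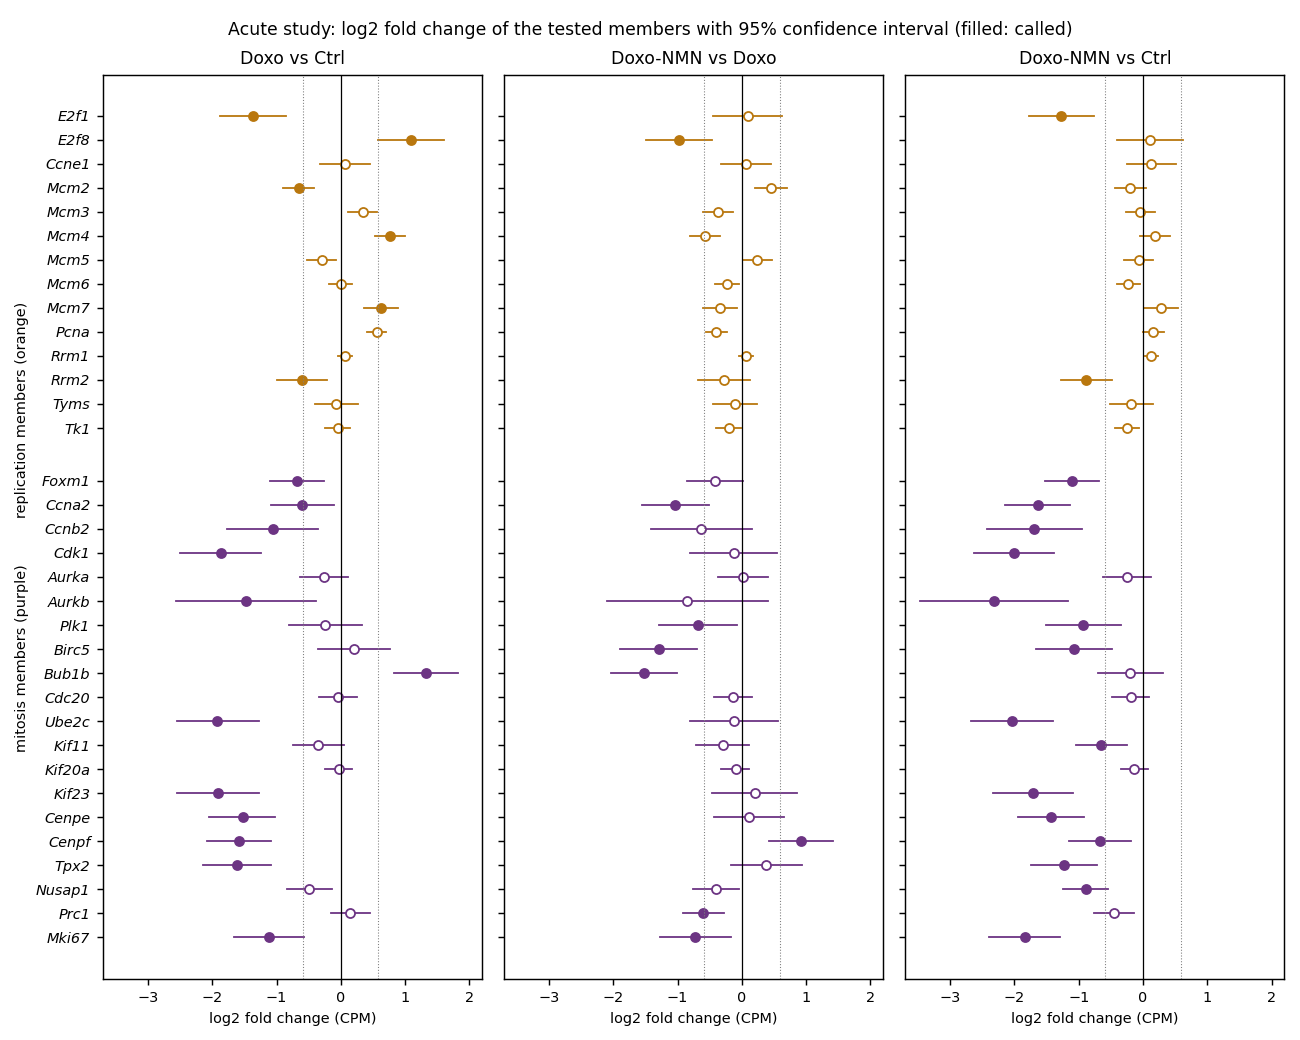
Log2 fold change (x axis, in CPM) of the 34 tested members in the 3 acute comparisons, with 95% confidence intervals from edgeR. Orange marks replication members, purple mitosis members, filled points are called genes and dotted lines mark a fold change of 1.5. In Doxo vs. Ctrl 11 of 20 mitosis members lie left as filled points and replication members lie on both sides, and in Doxo-NMN vs. Ctrl 15 of 20 mitosis and 2 of 14 replication members lie left.

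Among the replication members, the factor E2f1, an activator of S phase genes, fell. It ranged from 0.537 to 1.06 CPM in Ctrl (median 0.831), from 0.0306 to 1.07 CPM in Doxo (median 0.248) and from 0.151 to 0.6247 CPM in Doxo-NMN hearts (median 0.338). The highest Doxo value was again that of replicate 6, and the other Doxo hearts, at 0.455 CPM or less, lay below all Ctrl hearts. E2f1 differed from Ctrl by a log2 fold change of −1.36 (SE 0.255, edgeR adjusted p = 1.35e-05). E2f8, an atypical E2F that represses E2F targets, rose instead, from 0.227 to 1.02 CPM in Ctrl (median 0.679) to between 0.299 and 5.21 CPM in Doxo (median 1.03), a log2 fold change of 1.09 (SE 0.252, adjusted p = 0.000257). The lowest of these Doxo values was that of replicate 6. Exons of E2f8 share 11.2% of their length with Gm2788 on the other strand, and whether reads were counted by strand is not given in the sources used here. Ccne1, which encodes cyclin E1 of the G1/S step, had a log2 fold change of 0.07 (SE 0.191), with 0.454 to 1.26 CPM in Ctrl and 0.429 to 1.45 CPM in Doxo hearts.

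The 6 subunits of the MCM helicase, which work as 1 ring, did not move together. Mcm4 and Mcm7 rose, Mcm2 fell, and Mcm3, Mcm5 and Mcm6 were not called. Mcm4 ranged from 5.43 to 9.22 CPM in Ctrl (median 7.58) and from 6.93 to 20 CPM in Doxo hearts (median 12), a log2 fold change of 0.76 (SE 0.116, adjusted p = 4.45e-07). Mcm7 ranged from 6.8 to 10.9 CPM in Ctrl and from 7.2 to 20.9 CPM in Doxo hearts, a log2 fold change of 0.62 (SE 0.13, adjusted p = 6.6e-05) that lost its call without Doxo replicate 3, 4 or 12. Exons of Mcm7 overlap those of Ap4m1 on the other strand over 7.25% of their length and hold Mir25 and Mir93. Mcm2 went the other way, from 5.57 to 8.27 CPM in Ctrl (median 6.8) to between 2.39 and 8.12 CPM in Doxo hearts (median 3.93), with a log2 fold change of −0.65 (SE 0.121, adjusted p = 1.16e-05). Without replicate 6 the Doxo hearts reached 5.43 CPM at most, below the lowest Ctrl heart. Mcm6 was level, at 6.25 to 10.2 CPM in Ctrl and 5.46 to 10.6 CPM in Doxo hearts, with a log2 fold change of 0.00 and a 95% interval from −0.18 to 0.18. The differences of Mcm3 (0.34, adjusted p = 0.00784) and Mcm5 (−0.30, adjusted p = 0.0158) passed the p threshold and missed the fold change of 1.5.

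Pcna, the sliding clamp, gave the smallest adjusted p of all members. It ranged from 25.8 to 30.3 CPM in Ctrl (median 26.8) and from 26.3 to 62 CPM in Doxo hearts (median 37.9), and the log2 fold change of 0.56 (SE 0.0789, adjusted p = 1.35e-07) lay just under the cutoff of 1.5-fold. All Doxo hearts other than 2 lay above the Ctrl range, the lowest Doxo value being that of replicate 6. The nucleotide enzymes moved less. Rrm2, the regulated subunit of ribonucleotide reductase, ranged from 1.12 to 3.13 CPM in Ctrl (median 1.87) and from 0.65 to 2.9 CPM in Doxo hearts (median 0.987), a log2 fold change of −0.61 (SE 0.195, adjusted p = 0.00623) that lost its call when any 1 of 8 hearts was left out (Ctrl replicates 6 and 14 and Doxo replicates 2, 7, 8, 9, 11 and 13). Rrm1, the larger subunit, was among the steadiest members, at 14.5 to 18.4 CPM in Ctrl and 15.2 to 21 CPM in Doxo hearts (log2 fold change 0.06, SE 0.0521). Tyms (−0.07, SE 0.165) and Tk1 (−0.05, SE 0.0956), the thymidylate synthase and thymidine kinase genes, were not called.

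Mitosis genes gave the largest falls. Cdk1, the kinase that starts mitosis, ranged from 0.3 to 0.983 CPM in Ctrl (median 0.684), from 0 to 0.523 CPM in Doxo (median 0.149) and from 0.024 to 0.402 CPM in Doxo-NMN hearts (median 0.162). Replicate 6 held the highest Doxo value, and the other Doxo hearts, at 0.262 CPM or less, lay below all Ctrl hearts. The log2 fold change of Cdk1 was −1.87 (SE 0.309, adjusted p = 1.88e-06) with that heart and −2.14 (SE 0.299) without it. Most low counts of the acute table are even numbers, and with all counts divided by 2 Cdk1, Ube2c, Aurkb and Ccnb2 did not pass the filter on low counts and were not tested. Of its partners, Ccna2 fell by 0.60 on the log2 scale (SE 0.242, adjusted p = 0.0277), a call lost without any 1 of 8 hearts (Ctrl replicates 2, 13 and 14 and Doxo replicates 1, 5, 7, 8 and 9), and Ccnb2 by 1.06 (SE 0.352, adjusted p = 0.0079). The transcription factor gene Foxm1 ranged from 0.479 to 1.09 CPM in Ctrl and from 0.197 to 1.27 CPM in Doxo hearts, a log2 fold change of −0.68 (SE 0.207, adjusted p = 0.00393). Mki67 ranged from 2.55 to 6.1 CPM in Ctrl (median 3.7) and from 0.58 to 5.63 CPM in Doxo hearts (median 1.43), a log2 fold change of −1.12 (SE 0.266, adjusted p = 0.000339). The groups overlapped for Foxm1 and Mki67, with replicate 6 the highest Doxo heart for both.

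Among genes of the spindle and kinetochore, 4 of 8 tested members fell and none rose. Kif23, a kinesin of the central spindle and cytokinesis, ranged from 0.78 to 1.86 CPM in Ctrl (median 1.4) and from 0.0655 to 1.79 CPM in Doxo hearts (median 0.225), with a log2 fold change of −1.91 (SE 0.315, adjusted p = 1.86e-06). Only replicate 6 reached the Ctrl range, since the other Doxo hearts had 0.493 CPM or less, and without that heart the log2 fold change of Kif23 was −2.52 (SE 0.239). Tpx2, which activates Aurora A on the spindle, ranged from 0.705 to 1.56 CPM in Ctrl and from 0.0986 to 1.15 CPM in Doxo hearts (log2 fold change −1.61, SE 0.264, adjusted p = 1.64e-06). Cenpe, a kinetochore motor, fell by 1.53 on the log2 scale (SE 0.256, adjusted p = 2.31e-06). Cenpf, a large kinetochore protein gene, ranged from 13.3 to 46.1 CPM in Ctrl (median 22.3) and from 3.48 to 20.3 CPM in Doxo hearts (median 5.76), with a log2 fold change of −1.59 (SE 0.248, adjusted p = 6.97e-07), the smallest adjusted p among members that fell. Nusap1 (−0.49, adjusted p = 0.0125) passed the p threshold below 1.5-fold. Not called were also Kif11 (−0.35), Prc1 (0.15) and Kif20a (−0.03), and Kif20a shares 29.3% of its exon length with Cdc23 on the other strand.

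Kinases, checkpoint and APC/C genes split by member. Ube2c, the ubiquitin-conjugating enzyme of the APC/C, ranged from 0.358 to 1.46 CPM in Ctrl (median 0.666) and from 0.053 to 0.723 CPM in Doxo hearts (median 0.184). Its log2 fold change of −1.92 (SE 0.316, adjusted p = 1.9e-06) was the lowest of all tested members, and 22.8% of its exon length is shared with the troponin gene Tnnc2 on the other strand. Aurkb, the kinase of the chromosomal passenger complex, had 6 to 22 counts in Ctrl and 0 to 32 counts in Doxo hearts (medians 16 and 2), with a log2 fold change of −1.47 (SE 0.537, adjusted p = 0.0152). The Doxo maximum of Aurkb was replicate 6, at 0.797 CPM, and the other Doxo hearts had 0.394 CPM or less. Without that heart the log2 fold change of Aurkb was −2.31 (SE 0.522), and Aurkb could be tested in 39 of 53 alternatives. Aurka (−0.26), Plk1 (−0.24), Cdc20 (−0.05) and Birc5 (0.21) were not called. Bub1b, which encodes the checkpoint protein BubR1, was the 1 mitosis member that rose. It ranged from 0.66 to 1.6 CPM in Ctrl (median 1.14), from 0.721 to 4.93 CPM in Doxo (median 2.05) and from 0.511 to 2.28 CPM in Doxo-NMN hearts (median 0.91), and its log2 fold change of 1.32 with Doxo (SE 0.246, adjusted p = 1.27e-05) was the highest of the members. Doxo hearts were widely spread for Bub1b and overlapped the Ctrl hearts.

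**Figure D2:**
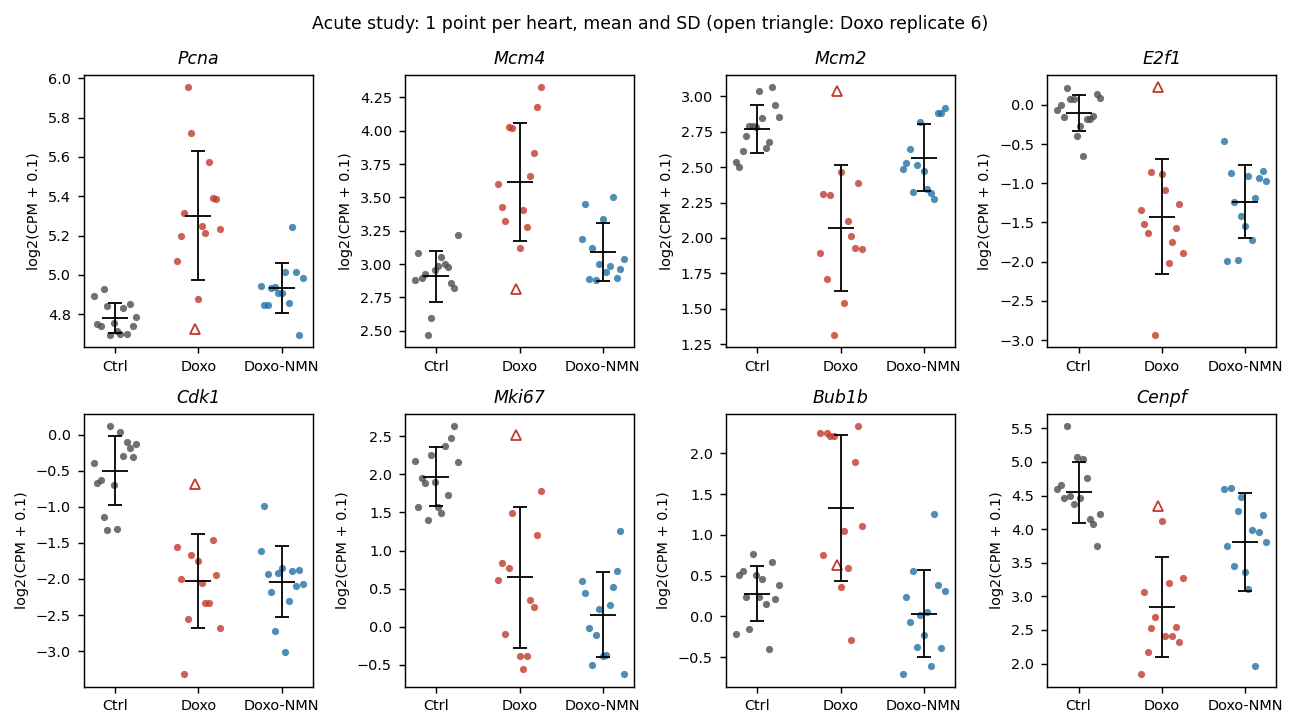
Level of 8 members in each acute heart (y axis, log2 of CPM + 0.1), 1 point per heart, with the mean and SD of each group as bars and the heart labelled Doxo replicate 6 as an open triangle. Pcna, Mcm4 and Bub1b lie higher in Doxo hearts, Mcm2, E2f1, Cdk1, Mki67 and Cenpf lower, and the triangle sits among the Ctrl hearts in most panels.

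Per heart, the mean of log2(CPM + 0.1) over the mitosis members without Cenpf lay between −0.604 and 0.0821 for Ctrl (median −0.241), between −1.37 and 0.0573 for Doxo (median −1.04) and between −1.41 and −1.02 for Doxo-NMN (median −1.24). Replicate 6 was the highest Doxo heart, and the next reached −0.852, below all Ctrl hearts. For the replication members the same mean lay between 1.82 and 2.18 for Ctrl (median 1.959), between 1.63 and 2.47 for Doxo (median 1.9) and between 1.66 and 1.98 for Doxo-NMN (median 1.83), so that the groups overlapped. The mitosis mean was lower in Doxo than in Ctrl hearts among those with Myl4 under 100 CPM (medians −0.0995 in Ctrl and −1.04 in Doxo hearts) and among those at or above it (−0.325 and −1.04). In hearts under 100 CPM of Myl4, 14 members were called in Doxo vs. Ctrl, and the calls of Aurkb, Ccna2, Ccnb2, Foxm1, Mcm7 and Rrm2 were lost. The red cell precursor and fibroblast markers given earlier were also lower in Doxo hearts, and their part in the mitosis levels was not tested.

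**Figure D3:**
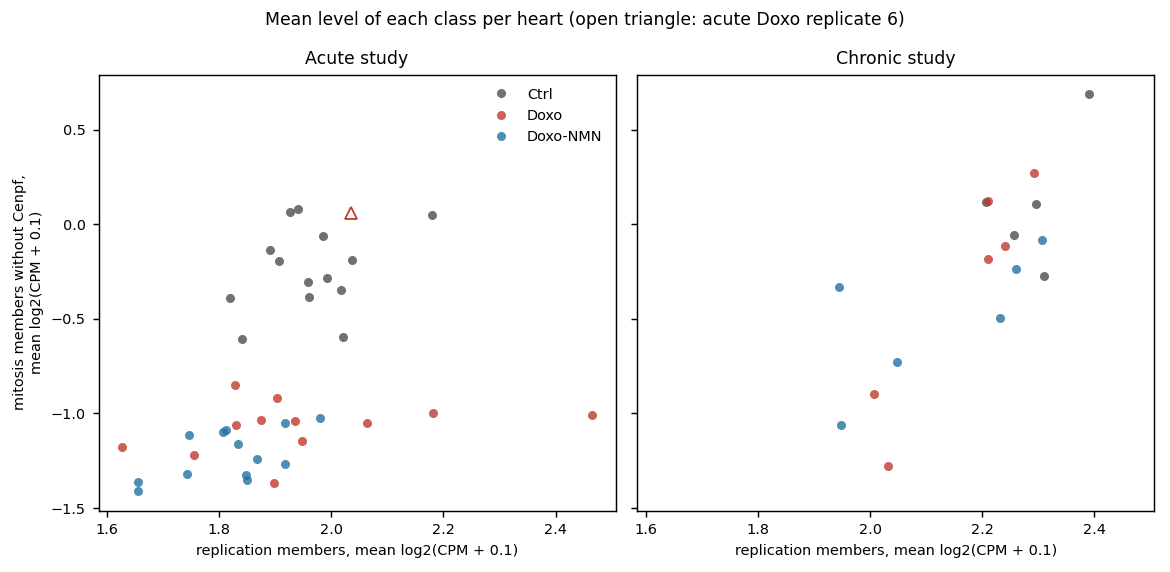
Mean log2(CPM + 0.1) of the 14 replication members (x axis) and of the 22 mitosis members without Cenpf (y axis) in each heart of the acute (left) and chronic (right) study, coloured by group, with the acute heart labelled Doxo replicate 6 as an open triangle. Acute Doxo and Doxo-NMN hearts lie below the Ctrl hearts on the y axis apart from the triangle, while the groups overlap on the x axis and, in the chronic study, on both axes.

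The Doxo-NMN vs. Doxo comparison asks which members differed between surviving mice given NMN and those given vehicle, all with Doxo. In the paper, a larger share of acute Doxo mice lived to the day of collection with NMN. The part of this in the differences was not tested. The comparison shares the Doxo hearts with the comparison above, so that a heart that deviates moves both. Markers of some other cells moved here too, with 4 of 6 fibroblast markers higher and 1 lower, and 2 of 6 cardiomyocyte markers higher. Lower were 3 of 4 neutrophil, 5 of 7 red cell precursor and 1 of 4 mesothelial markers. Of 6 endothelial markers 0 were called, and of 6 macrophage markers 1 was higher. The part of these cells in the members' differences was not tested. Of the 34 members tested, 1 rose and 7 fell, against 8.17% of all genes called higher and 8.88% called lower. Among replication members only E2f8 was called (1 of 14), and among mitosis members 6 of 20 fell and 1 rose. Of the 4 members that had risen in Doxo hearts, 2 were called lower with NMN. Bub1b had a log2 fold change of −1.52 (SE 0.253, adjusted p = 9.89e-06) and E2f8 of −0.98 (SE 0.256, adjusted p = 0.00166). Mcm4 (−0.58, SE 0.118, adjusted p = 0.000129) and Pcna (−0.40, SE 0.0803, adjusted p = 0.000107) passed the p threshold below 1.5-fold, as did Mcm7 (−0.34, SE 0.132, adjusted p = 0.0281) and, upward, Mcm2 (0.46, SE 0.122, adjusted p = 0.00204). The other differences of the smallest adjusted p upward, those of Tpx2 (0.38, adjusted p = 0.239), Mcm5 (0.24, adjusted p = 0.0722) and Rrm1 (0.07, adjusted p = 0.271), did not pass.

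Of the 11 mitosis members that fell with Doxo, Cenpf rose with NMN, Ccna2 and Mki67 fell further and 8 were not called. Cenpf ranged from 3.8 to 24.4 CPM in Doxo-NMN hearts (median 15.4), against a median of 5.76 CPM in Doxo and 22.3 CPM in Ctrl hearts, and rose by a log2 fold change of 0.92 (SE 0.248, adjusted p = 0.00211). Mitosis members that fell with NMN included some that Doxo alone had not lowered. Birc5, which encodes survivin of the chromosomal passenger complex, ranged from 0.101 to 0.733 CPM in Ctrl, from 0.197 to 0.735 CPM in Doxo and from 0.0224 to 0.338 CPM in Doxo-NMN hearts, a log2 fold change vs. Doxo of −1.29 (SE 0.296, adjusted p = 0.00043). Ccna2, the cyclin A2 gene, ranged from 0.65 to 1.59 CPM in Ctrl (median 0.909), from 0.222 to 1.42 CPM in Doxo (median 0.563) and from 0.114 to 0.599 CPM in Doxo-NMN hearts (median 0.248), and the log2 fold change vs. Doxo was −1.04 (SE 0.258, adjusted p = 0.000972). Doxo-NMN hearts did not overlap Ctrl hearts for Ccna2. Prc1 (−0.60, SE 0.158, adjusted p = 0.00165), Mki67 (−0.73, SE 0.274, adjusted p = 0.0246) and Plk1 (−0.69, SE 0.297, adjusted p = 0.0496) were called as well. The call of Prc1 was lost in 11 of 53 alternatives (among them without Doxo replicate 3, 5 or 10 or Doxo-NMN replicate 1, 2, 10, 11 or 12), that of Mki67 in 8 of 53 (among them without Doxo replicate 6 or 13) and that of Plk1 in 35 of 50. In hearts with Myl4 of at least 100 CPM, Birc5, Ccna2, Mki67, Plk1 and Prc1 were not called. Birc5 and Plk1 passed the filter on low counts mainly through Ctrl and Doxo hearts. Their median counts were 15 and 13 in Ctrl, 18 and 10 in Doxo, and 8 and 6 in Doxo-NMN hearts. Both lost their calls with acute counts divided by 2, and the share of mitosis members that fell depends in part on this. Without the heart labelled Doxo replicate 6, Kif23 (0.81, SE 0.243), Tpx2 (0.68, SE 0.242) and Mcm4 (−0.63, SE 0.11) were called. For Cdk1 (−0.13, SE 0.334), Ube2c (−0.12, SE 0.34), Rrm2 (−0.28, SE 0.201), E2f1 (0.09, SE 0.264) and Foxm1 (−0.42, SE 0.216) no difference from Doxo hearts was called.

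Compared with Ctrl, Doxo-NMN hearts had low mitosis genes, while 12 of 14 replication members were not called. Of 20 mitosis members, 15 fell (75%) and none rose, with a median log2 fold change of −1.09, and 2 of 14 replication members fell, with a median of −0.05. Cdk1, Ube2c, Ccnb2 and Aurkb, which passed the filter on low counts mainly through Ctrl hearts, are among the 15. So are Birc5 and Plk1, which passed it mainly through Ctrl and Doxo hearts. These 6 calls were lost with acute counts divided by 2, and the share that fell depends in part on this. Over all genes, 3.31% were called higher and 3.79% lower. Mki67 ranged from 0.548 to 2.28 CPM in Doxo-NMN hearts (median 1.08), below all Ctrl hearts, and had a log2 fold change of −1.84 (SE 0.273, adjusted p = 7.06e-06). Cdk1 had −2.01 (SE 0.309, adjusted p = 1.24e-05), Ube2c −2.04 (SE 0.315, adjusted p = 1.3e-05) and Ccna2 −1.64 (SE 0.253, adjusted p = 1.25e-05). Ube2c, at 0 to 0.323 CPM in Doxo-NMN hearts, also lay below all Ctrl hearts. Cenpe fell by 1.43 on the log2 scale (SE 0.252, adjusted p = 7.73e-05), Kif23 by 1.71 (SE 0.31, adjusted p = 0.000101) and Foxm1 by 1.10 (SE 0.21, adjusted p = 0.000188). Cenpf, despite its rise with NMN, stayed lower than in Ctrl hearts (−0.67, SE 0.24, adjusted p = 0.0356), a call lost without any 1 of 8 hearts (Ctrl replicates 4, 7 and 9 and Doxo-NMN replicates 4, 7, 8, 10 and 13).

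The replication members below Ctrl were E2f1 (−1.28, SE 0.251, adjusted p = 0.000282) and Rrm2 (−0.89, SE 0.196, adjusted p = 0.00097), and Rrm2 ranged from 0.528 to 1.65 CPM in Doxo-NMN hearts (median 1.01). In hearts with Myl4 under 100 CPM, 12 members were called in Doxo-NMN vs. Ctrl. The calls of E2f1, Rrm2, Aurkb, Cenpf, Kif11 and Plk1 were lost there. E2f1 and Rrm2 kept theirs in hearts with Myl4 of at least 100 CPM. In those hearts 11 members were called, and Birc5, Ccnb2, Cenpf, Foxm1, Kif11, Nusap1 and Plk1 lost their calls. The upward differences with the smallest adjusted p were not called. They were those of Rrm1 (0.13, adjusted p = 0.0576), Mcm7 (0.28, adjusted p = 0.103), Pcna (0.16, adjusted p = 0.138), Mcm4 (0.19, adjusted p = 0.233) and Ccne1 (0.13, adjusted p = 0.646). Sorted by their calls in the 3 acute comparisons, 8 mitosis members (Foxm1, Ccnb2, Cdk1, Aurkb, Ube2c, Kif23, Cenpe and Tpx2) and 2 replication members (E2f1 and Rrm2) were lower than Ctrl in both Doxo groups with no call between those groups. Ccna2 and Mki67 were called lower at each step. Plk1 and Birc5 were called lower only where NMN was given, vs. both other groups, and lost these calls with acute counts divided by 2. Bub1b and E2f8 were called higher in Doxo vs. Ctrl and lower in Doxo-NMN vs. Doxo, with no call between Doxo-NMN and Ctrl. Mcm4 and Mcm7 were higher and Mcm2 lower in Doxo vs. Ctrl, without a call in the other comparisons. This sorting depends in part on the heart labelled Doxo replicate 6. Without it, Mki67 lost its call in Doxo-NMN vs. Doxo, and Kif23 and Tpx2 (higher) and Mcm4 (lower) gained one. The call of Plk1 in that comparison was lost in 35 of 50 alternatives. No member was called higher in Doxo-NMN vs. Ctrl. The comparisons share hearts, and a call in 1 of them beside no call in another was not itself tested.

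Other genes of the same machinery, which are not members, were counted in the same way. Of 31 other replication genes tested in acute Doxo vs. Ctrl, 10 rose (32.3%) and 3 fell (9.68%), with a median log2 fold change of 0.24. Of 32 tested of 41 other mitosis genes, 4 rose (12.5%) and 13 fell (40.6%), with a median of −0.47. Over all genes tested, 14.7% were called higher and 15.4% lower. In Doxo-NMN vs. Ctrl, 2 of the other replication genes rose (6.45%) and 1 fell (3.23%), and 0 of the other mitosis genes rose and 14 fell (43.75%). The shares over all genes were 3.31% higher and 3.79% lower. With Doxo, the rises of lowest adjusted p among replication genes were those of Pole, a subunit of DNA polymerase epsilon (1.6, adjusted p = 2.39e-10), Chaf1a, a histone chaperone of replicating DNA (1.34, adjusted p = 9.63e-10), and Rpa2, which binds single-stranded DNA (0.67, adjusted p = 7.88e-09). Going down were the origin kinase gene Cdc7 (−1.54, adjusted p = 1.64e-05), Dut, which removes dUTP (−0.73, adjusted p = 1.09e-07), and, below 1.5-fold, the primase partner Pola2 (−0.43, adjusted p = 0.000167). Among mitosis genes, Anln (1.02, adjusted p = 0.00018), Ncaph (0.98, adjusted p = 2.47e-05) and Spc25 (0.85, adjusted p = 0.000676) rose, and Racgap1 (−1.51, adjusted p = 1.18e-06), Kif22 (−1.38, adjusted p = 2.4e-06) and the condensin gene Smc2 (−0.90, adjusted p = 5.09e-07) were the falls with the smallest adjusted p.

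Top2a, which encodes the topoisomerase II of cycling cells that Doxo poisons, followed the mitosis members. It ranged from 0.931 to 3.34 CPM in Ctrl, from 0.0991 to 3.84 CPM in Doxo and from 0.12 to 0.666 CPM in Doxo-NMN hearts, and its difference from Ctrl on the log2 scale was −1.58 for Doxo (SE 0.344, adjusted p = 0.00012) and −2.39 for Doxo-NMN (SE 0.358, adjusted p = 7.88e-06). Doxo replicate 6 held the 3.84 CPM, and the other Doxo hearts had 1.07 CPM or less (mean 0.471 CPM). The fold change for Doxo thus depends in part on that heart, and no fit of Top2a without it is given here. Of 29 tested genes of G1 and quiescence control, 3 rose (10.3%) and 4 fell (13.8%) in Doxo vs. Ctrl, shares below the 14.7% and 15.4% of all genes. Cdkn1a, the p53 target that encodes p21, ranged from 47.8 to 77.6 CPM in Ctrl, from 56.4 to 306.9 CPM in Doxo and from 56.3 to 145.9 CPM in Doxo-NMN hearts (Doxo vs. Ctrl 1.54, SE 0.165, adjusted p = 7.16e-10). Against Ctrl, Doxo-NMN gave 0.30 for Cdkn1a (SE 0.163, adjusted p = 0.17). Tfdp2, a partner of E2F factors (1.55, adjusted p = 8.26e-10), and Cdkn2d, an inhibitor of Cdk4 and Cdk6 (0.98, adjusted p = 4.42e-07), rose with it. Ccnd2, the cyclin D2 gene, fell (−0.93, adjusted p = 8.58e-08), and Cdk4 (−0.38, adjusted p = 2.45e-07) and E2f4 (−0.43, adjusted p = 9.19e-08) passed the p threshold below 1.5-fold. In Doxo-NMN vs. Ctrl, Ccnd2 was not called (−0.28, SE 0.127, adjusted p = 0.0956).

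In the chronic study, 60 days after the first injection, no member was called at an adjusted p under 0.05 in any of the 3 comparisons. Over all genes, edgeR called 0.0602% of 14960 genes in Doxo vs. Ctrl, 0% in Doxo-NMN vs. Doxo and 0.0401% in Doxo-NMN vs. Ctrl. At an unadjusted p under 0.05 the members counted 1, 0 and 8, against 1174, 441 and 707 of all genes, and DESeq2 and limma voom called 0 members in each comparison as well. The mitosis members lay low by their medians, at −0.38 in Doxo vs. Ctrl (17 of 20 below 0), −0.22 in Doxo-NMN vs. Doxo (16 of 20) and −0.66 in Doxo-NMN vs. Ctrl (18 of 20), and the replication members had medians of −0.17, −0.06 and −0.15. These 3 comparisons share hearts, and members that move together within a heart do not count separately. Per heart, the mitosis mean without Cenpf was −0.895 and −1.279 in chronic Doxo replicates 1 and 2. The other Doxo hearts, at −0.185 to 0.272, lay within the Ctrl range of −0.276 to 0.686. Ctrl replicate 1 held that highest value, with the next Ctrl heart at 0.118. Doxo-NMN hearts ranged from −1.063 to −0.083. The median SE of a mitosis member was 0.365 in chronic Doxo vs. Ctrl, and the median 95% interval reached 1.7-fold to either side of the estimate. For replication members the median SE was 0.165 and the interval reached 1.27-fold.

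By single members, Mcm2 came closest to a call in chronic Doxo vs. Ctrl. It stood at 8.06, 9.15, 11, 9.46 and 11.5 CPM in the 5 Ctrl hearts, at 6.54 to 8.87 CPM in Doxo (median 7.55) and at 7.14 to 9.29 CPM in Doxo-NMN hearts (median 8.37), with a log2 fold change of −0.37 for Doxo (SE 0.119, unadjusted edgeR p = 0.005, adjusted p = 0.484). The groups overlapped. Cdk1 stood at 1.85, 0.629, 0.596, 0.638 and 0.623 CPM in the Ctrl hearts and at 0.11 to 0.828 CPM in Doxo hearts, with a log2 fold change of −0.85 (SE 0.416), and 1 Ctrl heart lay far above the others. Rrm1 stood at 11.2, 14.5, 12.8, 10.5 and 12.9 CPM in Ctrl and at 12.4 to 15.2 CPM in Doxo hearts (0.19, SE 0.0931). In Doxo-NMN vs. Ctrl the smallest p-values were those of Kif23 (−1.15, SE 0.415), Mki67 (−1.15, SE 0.428) and Ube2c (−0.89, SE 0.369). Kif23 stood at 3.7, 1.84, 1.74, 1.49 and 1.58 CPM in Ctrl hearts and at 0.538 to 1.34 CPM in Doxo-NMN hearts, without overlap. Mki67 stood at 6.43, 4.07, 3.53, 2.98 and 3.51 CPM in Ctrl, at 0.936 to 5.09 CPM in Doxo and at 0.372 to 3.1 CPM in Doxo-NMN hearts, and the groups overlapped. Top2a stood at 1.38 to 3.21 CPM in Ctrl, 0.287 to 2.77 CPM in Doxo and 0.29 to 1.94 CPM in Doxo-NMN hearts, and Cdkn1a at 15.4 to 18 CPM, 15.4 to 116.9 CPM and 12 to 22.3 CPM. In Doxo-NMN vs. Doxo the smallest p-values, none of them under 0.05, were those of Ccna2 (−0.90, SE 0.488), Bub1b (−0.58, SE 0.317) and Aurka (−0.57, SE 0.335).

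Detection in chronic hearts depended on single hearts. A chronic Ctrl heart held on average 97.4% of the mitosis members at 3 counts or more (SD 3.89, n = 5), a Doxo heart 90.6% (SD 16.1, n = 6) and a Doxo-NMN heart 95.7% (SD 3.89, n = 6), and the lowest Doxo heart held 60.9%. All 14 replication members were detected in every chronic heart. Ccnb1 had 2 to 12 counts in Ctrl, 0 to 13 in Doxo and 2 to 8 in Doxo-NMN hearts. Bub1 (0 to 14, 0 to 6 and 0 to 6 counts) and Kif2c (2 to 10, 0 to 9 and 0 to 7 counts) were as scarce. Pcna (28.4 to 36.2 CPM in Ctrl, 31.3 to 43.1 CPM in Doxo), Mcm6 (7.16 to 12 CPM and 5.78 to 10.4 CPM), Rrm2 (0.817 to 2.53 CPM and 1.16 to 1.82 CPM), E2f1 (1.31 to 2.72 CPM and 0.402 to 1.67 CPM) and Foxm1 (0.957 to 1.91 CPM and 0.287 to 1.42 CPM) overlapped between Ctrl and Doxo hearts.

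**Figure D4:**
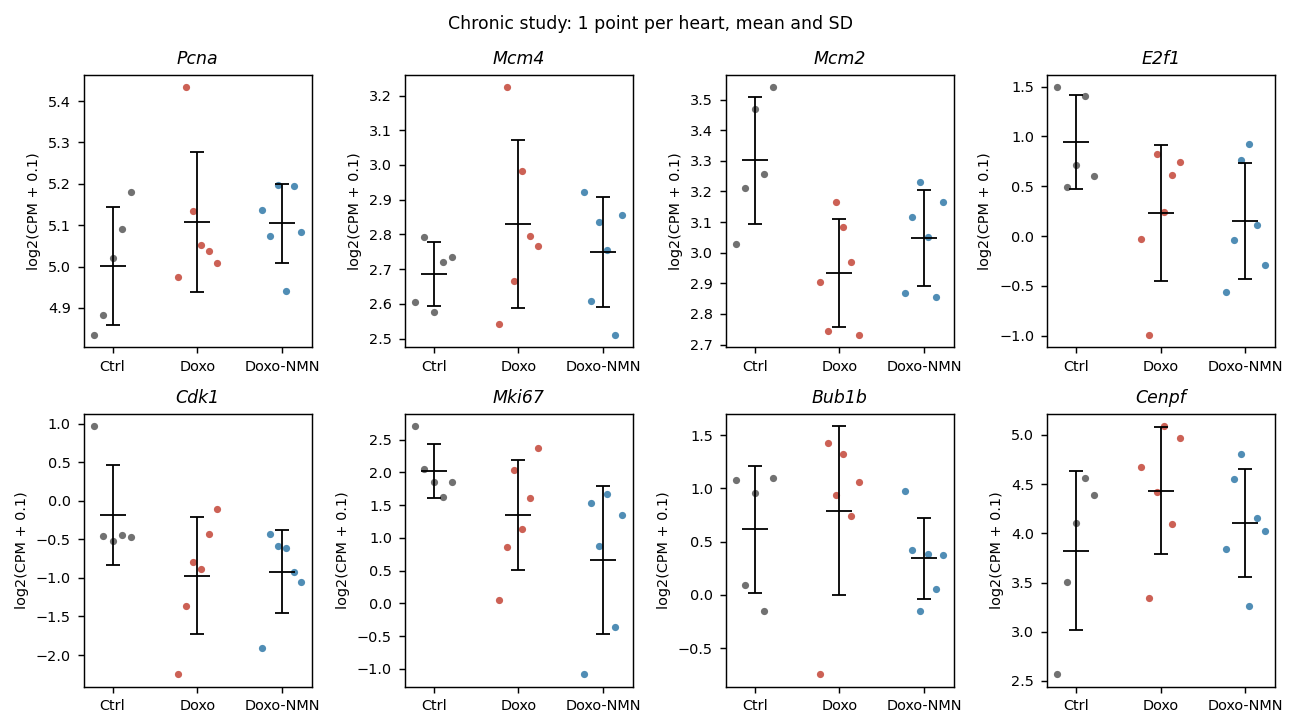
Level of the same 8 members in each chronic heart (y axis, log2 of CPM + 0.1), 1 point per heart, with the mean and SD of each group as bars (5 Ctrl, 6 Doxo and 6 Doxo-NMN hearts). The groups overlap in each panel, and 1 Ctrl heart lies far above the others for Cdk1.

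The Doxo effects of the 2 studies were compared by an interaction test on the Ctrl and Doxo hearts of both, in which all 37 members passed the filter. Regimen, time after Doxo, age, supplier and sequencing site differ between the studies and cannot be told apart. Of 37 members, 3 had a called difference, against 19.3% of 14965 genes. Cenpf had the smallest adjusted p, with a log2 difference of −2.15 (acute minus chronic, SE 0.458, adjusted p = 0.00379). It fell by 1.59 in acute Doxo vs. Ctrl and stood 0.56 higher in chronic Doxo vs. Ctrl (SE 0.329), where Ctrl hearts had 5.83, 11.2, 17.1, 23.6 and 20.8 CPM and Doxo hearts 10.1 to 33.9 CPM. Ccnb1 differed by −2.43 (SE 0.826, adjusted p = 0.0359) and Pcna by 0.44 (SE 0.155, adjusted p = 0.0415). Ccnb1, which did not pass the filter in either study alone, had median counts of 16 and 2 in acute Ctrl and Doxo hearts. In chronic hearts these were 5 and 5.5. Its call was lost in the fits without a filter on low counts, with a replicate block and with acute counts divided by 2. Pcna also lost its call with the replicate block. For the other mitosis members no difference was called, among them Cdk1 (−1, 95% interval −2.17 to 0.17) and Mki67 (−0.58, −1.61 to 0.45). Without the acute heart labelled Doxo replicate 6, 9 members were called, the same 3 and E2f8, Mcm4, Kif23, Kif2c, Tpx2 and Ube2c. This count ranged from 1 to 9 when single hearts were left out, and it was 1 without chronic Ctrl replicate 3, 4 or 5 or chronic Doxo replicate 1, 3, 5 or 6.

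**Figure D5:**
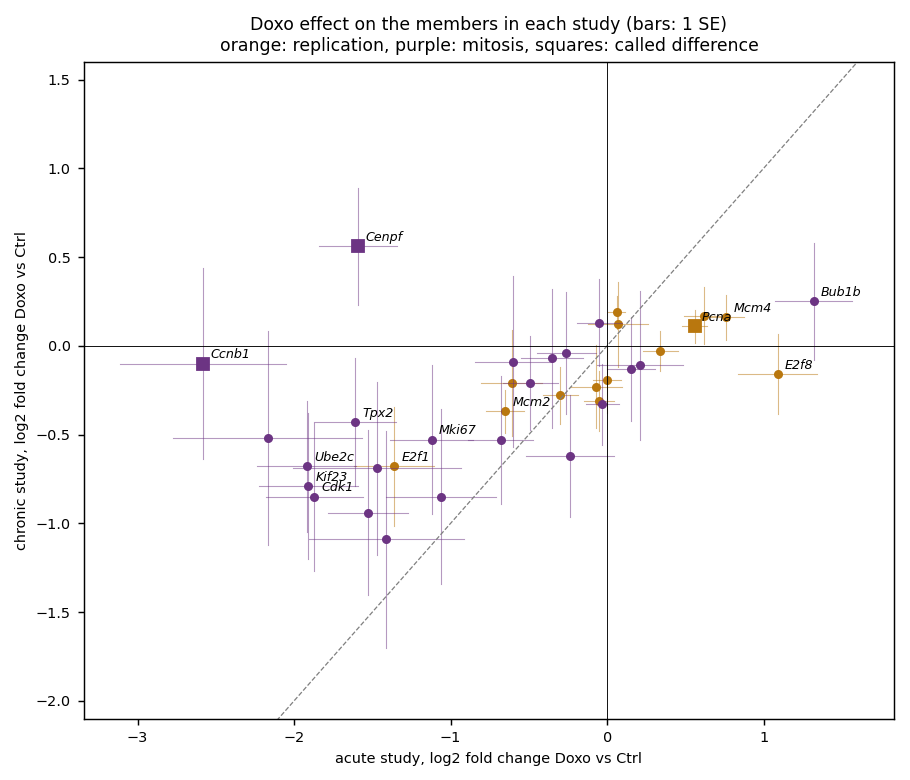
Log2 fold change of the 37 members in Doxo vs. Ctrl in the acute (x axis) and chronic (y axis) study, with bars of 1 SE, orange for replication and purple for mitosis members and squares for a called difference between the studies. The dashed line marks equal effects, Ccnb1, Bub1 and Kif2c are drawn from the fits without a filter on low counts, and Cenpf lies at −1.59 on the acute and at 0.56 on the chronic axis. The called difference of Ccnb1 was lost in the interaction fit without that filter.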

How the data were processed

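Poly(A) RNA of 57 hearts was sequenced in single-end reads of 150 bases, at a different site for each study. The authors aligned reads to mm10 with STAR (2.7.3a in the submitters' processing notes), counted them per gene with featureCounts 2.0.0 and deposited raw counts, 1 table per study. Settings for strand and for reads with several matches are not given in the sources used here, so values of overlapping genes and of genes with pseudogene copies (Ccnb1, Ccnb2, Pcna and Tyms) are uncertain. Of the members' counts from 1 to 20, 76.9% were even in acute hearts, against 53% in chronic hearts.

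Counts were tested with edgeR 4.0.16 (R 4.3.3) by the quasi-likelihood F test after filterByExpr and TMM normalization, with 1 fit of the 3 groups per study and Benjamini-Hochberg adjustment over all genes tested. Calls needed an adjusted p under 0.05 and, in the acute study, a fold change of at least 1.5. The Doxo effects were compared by an interaction on Ctrl and Doxo hearts of both studies. CPM uses TMM library sizes, and means per heart are of log2(CPM + 0.1). Nothing in the labels ties hearts to litters, cages or days, so p-values measure the spread between these hearts. According to the paper, mice were housed several to a cage, and chronic NMN was given in the drinking water. Hearts from 1 cage may not be independent, which could not be tested without cage labels. No heart repeated another within sampling noise (lowest chi-square per gene 9.91 acute and 5.09 chronic). On simulated counts, randomly drawn genes were changed 2-fold and scored by adjusted p under 0.05 without a fold change cutoff. The fit recovered 173 of 197 changed genes in the acute design (14008 genes), 151 of 196 in the chronic (14708) and 116 of 196 in the interaction (14780). Unchanged genes called numbered 11, 10 and 12. Recovery of genes as rare as the mitosis members was not measured apart.

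The members, the other lists and the tests were chosen with earlier results of these data known. Genes given with full values were a fixed set of 10 genes, the 5 members of lowest adjusted p upward and downward in every acute comparison, the 3 with the smallest p in each chronic comparison and in the interaction, the 3 with the fewest and the most counts, members under the filter, Cdkn1a, and the 3 genes of lowest adjusted p upward and downward from each other list. Other members are given by role. Alternatives were RLE size factors, DESeq2 1.42.0, limma voom (limma 3.58.1) with sample weights, no filter, a mean CPM of at least 1, robust dispersion, only the groups compared, a replicate block, acute counts divided by 2, other cutoffs, hearts split at 100 CPM of Myl4, and leaving out each heart. Promoter sequences are from RefSeq.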

Additional observations from a re-analysis of the deposited data

Results flagged for a closer look

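Among 111 groups of chronic hearts, 1 for each member and group, 13 held a heart whose gap to the others passed Dixon's critical value on the log2(CPM + 0.1) scale, and chance flags about 1 in 20 such groups. Chronic Doxo replicate 2 stood apart for 6 members. It was low for Mcm3 (5.57 CPM, others 7.01 to 7.68), Ube2c (0.115 CPM, others 0.589 to 1.18), Kif11 (0.115 CPM, others 0.771 to 1.77), Kif23 (0.0574 CPM, others 0.826 to 2.03) and Cenpe (0.0574 CPM, others 0.29 to 0.492), and high for Pcna (43.1 CPM, others 31.3 to 35). Chronic Ctrl replicate 1 was high for 4 members, which were Mcm3 (8.66 CPM, others 6.63 to 7.13), Mcm6 (11.98 CPM, others 7.16 to 8.09), Cdk1 (1.85 CPM, others 0.596 to 0.638) and Kif23 (3.7 CPM, others 1.49 to 1.84). Single low hearts were Rrm2 in Doxo-NMN replicate 1 (0.372 CPM, others 1.05 to 1.62), Bub1 in Ctrl replicate 4 (0 CPM, others 0.339 to 0.696) and Bub1b in Doxo replicate 1 (0.496 CPM, others 1.57 to 2.58). The log2 effect of Doxo differed between the studies, acute minus chronic, for Cenpf (−2.15), Ccnb1 (−2.43) and Pcna (0.44) by the interaction test in edgeR.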

How the results depend on the processing

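Of 3616 values of single members under alternatives, 3457 kept their side of the threshold, 143 lost a call, 16 gained one and 0 called values reversed. The sign differed for 17 values called in neither fit. The 18 members called in acute Doxo vs. Ctrl became 7 with a mean CPM of at least 1, when 18 members were tested. The 8 members called in acute Doxo-NMN vs. Doxo became 14 without a fold change cutoff, 3 at a fold change of at least 2, 4 with a mean CPM of at least 1 and 5 in hearts with Myl4 of at least 100 CPM. The 17 in Doxo-NMN vs. Ctrl became 5 with a mean CPM of at least 1, 11 with acute counts divided by 2 (28 members tested) and 11 in hearts with Myl4 of at least 100 CPM. In the chronic study 0 members were called in every fit with adjusted p-values, and at an unadjusted p under 0.05 the counts were 1 (Doxo vs. Ctrl) and 8 (Doxo-NMN vs. Ctrl). The 3 called differences between studies became 17 with limma voom, for which the cause was not tested. Leaving out single hearts gave 15 to 20, 6 to 10 and 15 to 17 members in the acute comparisons, 0 in each of the chronic ones and 1 to 9 between studies (9 without acute Doxo replicate 6, 6 without chronic Doxo replicate 2). The call of Plk1 in Doxo-NMN vs. Doxo was lost in 35 of 50 alternatives, that of Pcna between studies in 17 of 46 and that of Ccnb1 in 9 of 44.

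Replicate numbers did not pair the hearts. Deviations of hearts with the same number correlated from −0.62 to 0.58 over 39 acute pairs (median 0.06) and from −0.25 to 0.41 over 16 chronic pairs (median 0.02), and 3 acute and 2 chronic hearts correlated best with their own number. With the replicate block, 17, 7 and 16 members were called in the acute comparisons, 0 in each chronic one and 1 between studies. Ccnb1, Bub1 and Kif2c sit near the limit of detection.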
